A study of Arabidopsis thaliana with 8 samples.

Results

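The genes described here are the protein-coding genes that lie around the 5 centromeres of Arabidopsis thaliana and gave a measurable signal on the array. They were chosen by position and signal, by a rule set with earlier results of these data known. A probe set was a member if it named 1 gene of RefSeq biotype protein_coding whose start in the TAIR10.1 assembly fell within 11.5 to 17.7 Mb of chromosome 1, 1.1 to 7.2 Mb of chromosome 2, 10.3 to 17.3 Mb of chromosome 3, 1.5 to 6.3 Mb of chromosome 4 or 9 to 16 Mb of chromosome 5, and whose mean signal over the 8 arrays was at least 30 array units. The loci AT1G36240, AT2G15560, AT3G30720 and AT3G32030 were left out by the same rule. All 4 were higher in 15B, each by more than any member, so the members lack the largest rises. This gave 593 member probe sets for 591 genes, of 13822 probe sets tested on the whole array. The genes AT5G35430 and AT2G07360 have 2 member probe sets each.

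Transcript levels were measured with Affymetrix ATH1 arrays, whose probe sets each combine a group of short probes, in total tissue of young plants of 2 lines. The mutant 15B (4 arrays) was obtained from its parent with ethyl methanesulfonate (EMS), a chemical that causes point mutations across the genome. The silenced parent (4 arrays) is N1695, a line in the accession Landsberg erecta (Ler) homozygous for 1 insert that adds a copy of CHS (TT4, the chalcone synthase gene) and thereby silences the resident gene. Both lines thus carry the insert and the Ler background. All plants were at growth stage 1.04, after 3 days at 4 °C and growth at 22 °C with 18 h of light on 0.7% agar with 1% sucrose. The design text gives 10 plants per pool and 4 biological replicates. The series title ties the comparison to hog1 and the relief of CHS silencing. No label names the gene altered in 15B, which is 1 mutant line, so any other EMS mutation in it cannot be told apart from that gene. In total tissue, fewer cells of a type and less RNA per cell cannot be told apart either.

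The DNA flanking plant centromeres is mostly packed as heterochromatin, a condensed state marked by DNA methylation and by methylation of histone H3, in which transposons and related repeats are kept silent. Ordinary genes are sparse there, but they do exist as islands between the repeats, and many of them are transcribed in spite of the surroundings. HOG1 encodes S-adenosylhomocysteine hydrolase, which removes the by-product of methyl transfer and so keeps methylation reactions running. In the windows used here, RefSeq annotates 3383 protein-coding genes and 3346 pseudogene loci, the biotype that also covers transposon genes. The question the members answer is how many of the ordinary genes of this neighbourhood differed between 15B and its silenced parent.

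Few members differed. Of 593 members, 37 changed (6.24%) at an adjusted p under 0.05 (limma, Benjamini-Hochberg over all 13822 tested probe sets), against 6.70% of all tested probe sets. In 15B, 15 members were higher (2.53%, against 3.13% of all tested) and 22 were lower (3.71%, against 3.57%). These shares lie near those of the whole array and are therefore no result about the members. Among protein-coding genes elsewhere on the chromosomes, 366 of 6626 changed (5.52%), with 131 higher (1.98%) and 235 lower (3.55%). Of 92 tested pseudogene-annotated loci in the same windows, 66 were higher in 15B (71.7%) in the same fit. A locus dim in the silenced parent passed the signal filter only if it was high in 15B, so the filter raises this share. By how much was not measured, and the share is not set against that of the members. Arrays are numbered by replicate. The number of members higher in 15B was 9 with array 2 or array 4 of 15B left out, and also 9 with array 3 of the silenced parent left out. The number lower in 15B was 14 with array 2 of 15B left out, 12 with array 2 of the silenced parent left out and 14 with its array 3 left out.

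Most members stayed where they were. A member is called held here if it did not change and if the 95% interval of its log2 difference (15B minus silenced parent) lay within 0.5 on either side of 0. Held members numbered 415 (70.0%), against 72.2% of all tested probe sets. A further 141 members (23.8%) neither changed nor had so narrow an interval, and are called undetermined. The median log2 difference over the members was -0.04, beside -0.03 over all tested probe sets. It was 2.19 over the 92 pseudogene-annotated loci, a value that the filter raises as it does their share. The 4 values of 15B lay wholly above or below the 4 values of the silenced parent for 86 members (14.5%, against 13.6% of all tested), and 127 members had an unadjusted p under 0.05 (21.4%, against 21.5%). Of the members, 5 changed by at least 2-fold (0.843%), where 1.38% of all tested probe sets did. The 4 loci left out by the rule all changed by more than this and are not in the count, so it shows no shortage of large changes.

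**Figure D1:**
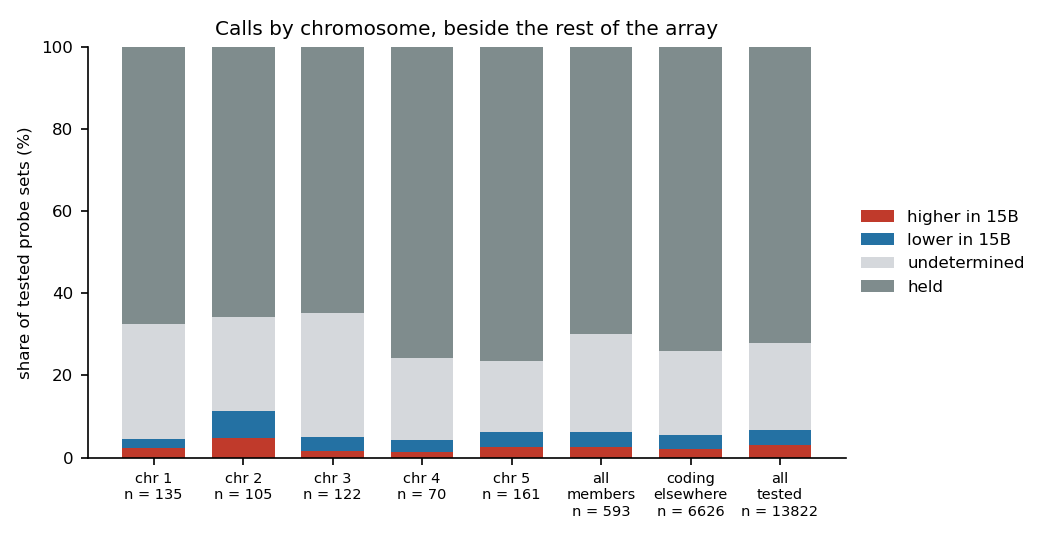
Share of tested probe sets (percent, vertical axis) that were higher in 15B, lower in 15B, undetermined or held, for the members of each chromosome, all 593 members, 6626 protein-coding probe sets elsewhere and all 13822 tested probe sets. Each bar is mostly held, and the changed share is 11.4% for chromosome 2 and between 4.29% and 6.21% for the other 4 chromosomes.

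The share of changed probe sets was larger at higher signal, among the members as on the whole array. It was 4.39% of members with a mean signal of 30 to 60 (4.53% of all tested), 6.20% from 60 to 200 (6.52%) and 9.65% at 200 and over (9.74%). By position, of 106 members nearer to the middle of their window than to its edge, 6 changed (5.66%, 1 higher and 5 lower), and of the 487 others 31 changed (6.37%, 14 higher and 17 lower). Narrowing every window by 1 Mb on each side left 214 members, of which 9 changed (4.21%). Over all tested probe sets 6.70% changed. These shares by position rest on few changed members, and the difference between them was not tested. Probe sets with the suffix _at, designed for 1 transcript, made up 579 members, and 11 had the suffix _s_at and 3 _x_at, whose probes several sequences share. Of the changed members, 36 were _at and 1 was _s_at.

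**Figure D2:**
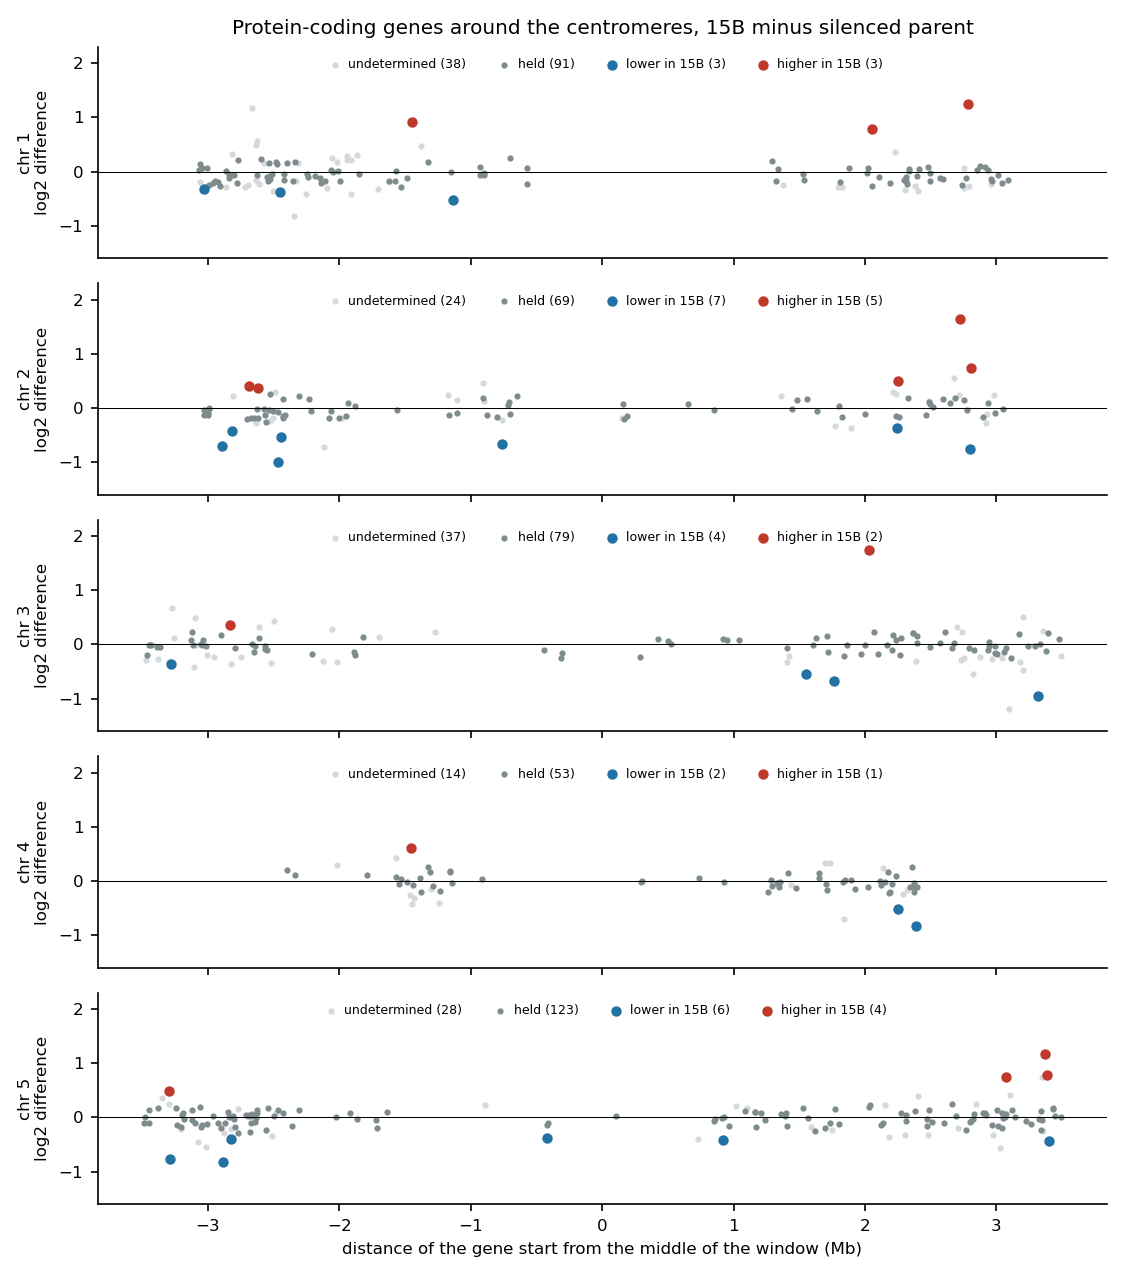
Log2 difference (15B minus silenced parent, vertical axis) of each member against the distance of its gene start from the middle of the window (Mb, horizontal axis), with 1 panel per chromosome. Changed members (red for higher, blue for lower in 15B) are scattered among held members (dark grey) and undetermined ones (light grey), and few members of any kind lie near the middle of each window.

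On chromosome 1, 6 of 135 members changed (4.44%, beside 6.27% of the protein-coding probe sets elsewhere on the chromosome), 3 higher and 3 lower. The 3 rises were larger than the 3 falls. AT1G47400 had signals of 384, 752, 576 and 714 in 15B, against 228, 299, 159 and 313 in the silenced parent. Every 15B array was above every array of the silenced parent, and the log2 difference between the group means was 1.25 (SE 0.22, adjusted p = 0.00468). AT1G35617 had 83.1, 86.9, 58.4 and 71.9 in 15B, against 41.1, 40.3, 21.8 and 38.8 in the silenced parent. It too was apart on all arrays (log2 difference 0.92, SE 0.17, adjusted p = 0.00552), with replicate 3 the lowest array of both groups. AT1G43910 had 82.0, 107, 102 and 111 in 15B, against 50.8, 64.4, 44.8 and 57.6 in the silenced parent (log2 difference 0.78, SE 0.12, adjusted p = 0.00199). All 3 rises kept their call in each alternative fit at this threshold.

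The falls on chromosome 1 were AT1G36070, AT1G33490 and AT1G32160. AT1G36070 had 22.6, 19.5, 32.6 and 26.7 in 15B, against 39.3, 41.9, 35.9 and 44.9 in the silenced parent (log2 difference -0.53, adjusted p = 0.0463). Its mean in 15B was under the signal filter, so it was tested only because of its level in the silenced parent. AT1G33490 had 87.0, 93.8, 84.4 and 81.8 in 15B, against 124, 113, 97.3 and 129 in the silenced parent (log2 difference -0.37, adjusted p = 0.0468). AT1G32160 had 353, 350, 384 and 331 in 15B, against 473, 474, 448 and 392 in the silenced parent (log2 difference -0.32, adjusted p = 0.0414). The groups did not overlap for any of the 3, but all 3 sat just inside the threshold and lost their call in many alternative fits. AT1G36070 lost it in 12 of 18, among them with array 1, 2 or 4 of 15B left out or with any 1 array of the silenced parent left out (adjusted p up to 0.116). AT1G33490 lost it in 12 of 19, among them with any 1 array of 15B left out or with array 1, 2 or 4 of the silenced parent left out (up to 0.108). AT1G32160 lost it in 9 of 19, among them with any 1 array of 15B left out or with array 1, 2 or 3 of the silenced parent left out (up to 0.108). The count for the chromosome was 3 with array 4 of 15B left out or with array 2 of the silenced parent left out.

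Of the other members of chromosome 1, 91 held and 38 were undetermined. The brightest held member was PRK, phosphoribulokinase, a Calvin cycle enzyme that makes the acceptor of carbon dioxide. Its signals were 2835, 2810, 2797 and 2571 in 15B, against 2982, 2806, 2720 and 2366 in the silenced parent. The groups overlapped almost fully, with replicate 4 the lowest of each, and the log2 difference was 0.02 (95% interval -0.15 to 0.20). AT1G32470 averaged 1416 ± 85.9 in 15B and 1415 ± 95.02 in the silenced parent (SD, n = 4 each), a log2 difference of 0.00 (-0.16 to 0.17). AT1G42960 averaged 859 ± 32.6 in 15B and 891 ± 62.4 in the silenced parent (SD, n = 4 each), a log2 difference of -0.05 (-0.21 to 0.11).

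Chromosome 2 had 12 changed members of 105 (11.4%), 5 higher and 7 lower, while 5.05% of the protein-coding probe sets elsewhere on the chromosome changed. The difference in this share between chromosomes was not tested, and the count depended on the arrays. It was 7 with array 2 of 15B left out, 6 with array 2 of the silenced parent left out and 7 with its array 3 left out. Narrowing the window by 1 Mb on each side left 37 of the 105 members, and 1 of the 12 changed ones. The largest rise belonged to SQN (SQUINT, AT2G15790), the plant cyclophilin 40, a partner of the chaperone HSP90 that promotes microRNA activity through ARGONAUTE1 and keeps shoots in the juvenile phase for their normal time. SQN had signals of 75.4, 90.2, 89.1 and 110 in 15B, against 26.0, 13.0, 22.5 and 29.4 in the silenced parent. The lowest 15B array was above the highest array of the silenced parent with a wide gap, and the log2 difference was 1.65 (SE 0.17, adjusted p = 4.75e-05). Its mean in the silenced parent was under the signal filter, so SQN was tested only because of its level in 15B.

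The other 4 rises on chromosome 2 were smaller. AT2G16005 had 83.4, 132, 110 and 107 in 15B, against 82.3, 55.2, 60 and 47.6 in the silenced parent (log2 difference 0.73, SE 0.16, adjusted p = 0.0139). The groups only just missed each other, with replicate 1 of the silenced parent almost level with replicate 1 of 15B. AT2G14900 had 221, 194, 289 and 285 in 15B, against 141, 182, 191 and 173 in the silenced parent (log2 difference 0.49, SE 0.13, adjusted p = 0.047). It lost its call in 9 of 19 alternative fits, among them with array 1, 3 or 4 of 15B left out or with any 1 array of the silenced parent left out (adjusted p up to 0.127). XERICO (AT2G04240), a RING-type protein whose overexpression raises abscisic acid and drought tolerance, had 150, 166, 163 and 146 in 15B, against 133, 112, 110 and 108 in the silenced parent. The groups were close but apart, with a log2 difference of 0.40 (SE 0.09, adjusted p = 0.0205). The XERICO call was lost with array 2 or 3 of 15B left out or with array 2, 3 or 4 of the silenced parent left out (up to 0.0696). AT2G04400, which the naming rule did not reach and which is named after its values were seen, had a log2 difference of 0.37 (adjusted p = 0.0361).

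Among the 7 falls on chromosome 2 was AT2G04795, the largest fall of all changed members. It had 50.0, 61.2, 82.0 and 63.0 in 15B, against 87.7, 198, 133 and 148 in the silenced parent (log2 difference -1.0, SE 0.20, adjusted p = 0.00906). All 15B arrays were lower, although replicate 1 of the silenced parent was only slightly above the highest of them. AT2G03980 had 117, 104, 104 and 124 in 15B, against 185, 195, 172 and 202 in the silenced parent (log2 difference -0.70, SE 0.09, adjusted p = 0.000388). AT2G15960, the brightest changed member of the chromosome, had 545, 645, 699 and 753 in 15B, against 893, 1401, 1466 and 843 in the silenced parent (log2 difference -0.76, SE 0.17, adjusted p = 0.0205). Its arrays of the silenced parent fell into a high pair, replicates 2 and 3, and a low pair only a little above 15B. It lost its call with no filter, with array 1 or 2 of 15B left out or with array 2 or 3 of the silenced parent left out (up to 0.0648). AT2G04845, AT2G04039 and AT2G14880, named after their values were seen, were lower in 15B, with log2 differences of -0.54, -0.42 and -0.37 (adjusted p = 0.0145, 0.00882 and 0.0191).

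The remaining fall on chromosome 2, AT2G07708, lies in a stretch known to hold a large insert of mitochondrial DNA. Its probe set is an _s_at design, so its signal may combine several sequences. It had 87.2, 63.7, 80.8 and 98.3 in 15B, against 115, 151, 192 and 102 in the silenced parent (log2 difference -0.67, SE 0.17, adjusted p = 0.0395). It lost its call in 9 of 18 alternative fits, among them with array 1, 2 or 3 of 15B left out or with array 2 or 3 of the silenced parent left out (adjusted p up to 0.114). Between 3.2 and 3.6 Mb, 11 members were tested, 8 of them _s_at, and AT2G07708 was the only 1 that changed. Its next member, AT2G07707, at a gap of 0.083 kb, had 138, 115, 105 and 116 in 15B, against 160, 114, 178 and 117 in the silenced parent, which overlap (log2 difference -0.23, adjusted p = 0.371). Of these 11 members 7 held and 3 were undetermined. Outside this stretch 11 of 94 members of chromosome 2 changed (11.7%).

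On chromosome 2, 69 members held and 24 were undetermined. The brightest held member, AT2G10940, had 1966, 1970, 1878 and 1744 in 15B, against 1869, 1827, 2124 and 1448 in the silenced parent (log2 difference 0.07, 95% interval -0.16 to 0.29). AT2G04700 averaged 1102 ± 82.7 in 15B and 1152 ± 127 in the silenced parent (SD, n = 4 each; log2 difference -0.06, -0.26 to 0.14). AT2G05790 was lower on all 4 arrays of 15B, at 866, 767, 777 and 829, against 867, 866, 1007 and 877 in the silenced parent. It did not pass the test (log2 difference -0.16, adjusted p = 0.266), and its interval of -0.32 to 0.01 kept it among the held members.

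On chromosome 3, 6 of 122 members changed (4.92%, beside 5.63% of the protein-coding probe sets elsewhere on the chromosome), 2 higher and 4 lower. The largest rise of all members was that of AT3G44070, which had 218, 198, 189 and 177 in 15B, against 59.5, 50.9, 47.9 and 47.4 in the silenced parent. Each group was tight and the gap between them wide (log2 difference 1.74, SE 0.10, adjusted p = 1.18e-07). The call for AT3G44070 held in every alternative fit, with an adjusted p of at most 2.51e-06. The other rise, AT3G28940, was small at a high signal, with 744, 875, 833 and 894 in 15B, against 608, 650, 614 and 712 in the silenced parent (log2 difference 0.37, SE 0.08, adjusted p = 0.0199). It lost its call with array 2, 3 or 4 of 15B left out or with array 3 of the silenced parent left out (up to 0.0697).

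AT3G46490 and AT3G43670 were the largest falls of chromosome 3. The mean of AT3G46490 in 15B was under the signal filter, so it was tested only because of its level in the silenced parent. AT3G46490 had 23.4, 17.0, 20.7 and 20.4 in 15B, against 59.1, 55.5, 48.5 and 35.0 in the silenced parent (log2 difference -0.96, SE 0.15, adjusted p = 0.00215). AT3G43670 had 35.0, 36.0, 30.3 and 36.0 in 15B, against 52.4, 64.8, 66.8 and 60 in the silenced parent (log2 difference -0.68, SE 0.11, adjusted p = 0.00272). Neither gene had an array of 15B within the range of the silenced parent, and both kept their call in each alternative at this threshold. AT3G43430 had 24.3, 33.2, 34.9 and 20.3 in 15B, against 42.1, 44.3, 50.8 and 42.5 in the silenced parent (log2 difference -0.54, adjusted p = 0.0473). As with AT3G46490, its mean in 15B was under the filter. AT3G43430 lost its call in 10 of 18 alternative fits (adjusted p up to 0.137). Among these were the fits with array 1, 2 or 4 of 15B left out or with any 1 array of the silenced parent left out. AT3G28200 had 82.0, 84.6, 87.7 and 83.8 in 15B, against 102, 119, 111 and 115 in the silenced parent (log2 difference -0.36, adjusted p = 0.0253). Its groups were narrow and apart, yet the call was lost with any 1 array of 15B left out or with array 2, 3 or 4 of the silenced parent left out (up to 0.0725). The count for the chromosome was 3 with array 2 or 4 of 15B left out or with array 3 of the silenced parent left out.

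Of the rest of chromosome 3, 79 members held and 37 were undetermined. AT3G30390 averaged 939 ± 59.97 in 15B and 849 ± 84.6 in the silenced parent (SD, n = 4 each; log2 difference 0.15, 95% interval -0.04 to 0.33). AT3G42050 averaged 610 ± 34.6 in 15B and 569 ± 24.3 in the silenced parent (log2 difference 0.10, -0.06 to 0.25). AT3G44590 had 881, 914, 1014 and 997 in 15B, against 875, 738, 807 and 857 in the silenced parent. All its 15B arrays were the higher ones, but the difference of 0.21 did not pass (adjusted p = 0.138), and its interval of 0.04 to 0.39 stayed within the limit for held members. The neighbour pair of this stretch, AT3G44590 and CYP71 (AT3G44600, a cyclophilin that binds histone H3), had log2 differences of 0.21 and 0.22, and neither changed.

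Chromosome 4 had the fewest members, and 3 of its 70 changed (4.29%, beside 5.98% of the protein-coding probe sets elsewhere on the chromosome). The count ranged from 2 to 4 over the fits that left out 1 array. AT4G10060 had 110, 98.3, 138 and 127 in 15B, against 248, 216, 201 and 205 in the silenced parent (log2 difference -0.83, SE 0.11, adjusted p = 0.000493). AT4G09760 had 43.1, 46.2, 42.4 and 45.6 in 15B, against 59.4, 66.9, 76.2 and 69.2 in the silenced parent (log2 difference -0.52, SE 0.10, adjusted p = 0.00985). Both falls were seen on all arrays and kept their call in each alternative at this threshold. Narrowing the window by 1 Mb on each side left 22 of the 70 members and 0 of the 3 changed ones.

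The rise on chromosome 4 was that of MSRB5, a methionine sulfoxide reductase that repairs oxidised methionine in proteins. MSRB5 had 184, 283, 238 and 270 in 15B, against 162, 132, 190 and 138 in the silenced parent. The groups overlapped, since replicate 1 of 15B was under replicate 3 of the silenced parent (log2 difference 0.61, SE 0.14, adjusted p = 0.0224). The MSRB5 call was lost with array 2, 3 or 4 of 15B left out or with array 2 or 4 of the silenced parent left out (adjusted p up to 0.0778). Relatives of the same enzyme family stand next to it in tandem. MSRB3 and MSRB6 had log2 differences of -0.26 (95% interval -0.50 to -0.02, adjusted p = 0.186) and -0.43 (-0.78 to -0.09, adjusted p = 0.128). Neither passed the test, and both estimates lay below 0 where that of MSRB5 lay above it. The difference between them and MSRB5 was not tested.

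On chromosome 4, 53 members held (75.7%) and 14 were undetermined. ATPC1, the gamma subunit of the chloroplast ATP synthase, had 2751, 2776, 2874 and 2851 in 15B, against 3008, 3127, 2974 and 2605 in the silenced parent. It was the brightest member, and replicate 4 of the silenced parent was its lowest array (log2 difference -0.05, 95% interval -0.21 to 0.10). ATHM2, a chloroplast thioredoxin of the m type, averaged 2044 ± 61.6 in 15B and 1911 ± 250 in the silenced parent (SD, n = 4 each; log2 difference 0.11, -0.09 to 0.30). SAH7 averaged 453 ± 36.5 in 15B and 409 ± 62.1 in the silenced parent (log2 difference 0.15, -0.08 to 0.39).

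Chromosome 5 had the most members, and 10 of 161 changed (6.21%, beside 4.60% of the protein-coding probe sets elsewhere on the chromosome), 4 higher and 6 lower. The count was 6 with array 4 of 15B left out or with array 3 of the silenced parent left out. Of its 4 rises, 3 lay near the far end of the window. AT5G39640 had 65.5, 68.8, 68.3 and 62.0 in 15B, against 22.6, 24.8, 32.1 and 17.4 in the silenced parent (log2 difference 1.17, SE 0.14, adjusted p = 0.000163). As with SQN, its mean in the silenced parent was under the filter. AT5G39670 had 77.7, 79.9, 74.3 and 62.6 in 15B, against 39.1, 46.2, 29.3 and 41.7 in the silenced parent (log2 difference 0.78, SE 0.13, adjusted p = 0.00283). Both kept their call in each alternative at this threshold. AT5G38900 had 77.1, 101, 66.7 and 104 in 15B, against 34.4, 62.8, 45.4 and 49.2 in the silenced parent (log2 difference 0.75, SE 0.17, adjusted p = 0.0176). Its groups were apart by little, and the call was lost with array 2 or 4 of 15B left out or with array 3 of the silenced parent left out (up to 0.0639).

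AT5G26260 and AT5G26280, at the near end of the window, moved in opposite directions. AT5G26260 had 98.7, 90.4, 85.5 and 113 in 15B, against 56.2, 59.7, 64.4 and 84.3 in the silenced parent (log2 difference 0.50, SE 0.13, adjusted p = 0.0362). AT5G26280 had 110, 107, 124 and 118 in 15B, against 142, 245, 219 and 212 in the silenced parent (log2 difference -0.76, SE 0.14, adjusted p = 0.00564). The fall was seen in each alternative at this threshold. The rise of AT5G26260 lost its call in 7 of 19 alternative fits, among them with array 1, 2 or 4 of 15B left out or with array 1, 2 or 3 of the silenced parent left out (up to 0.0966).

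The other falls on chromosome 5 were AT5G27280, AT5G39730, AT5G35170, AT5G27400 and AT5G32450. AT5G27280 had 153, 167, 164 and 273 in 15B, against 385, 321, 284 and 358 in the silenced parent (log2 difference -0.83, SE 0.16, adjusted p = 0.00743). Replicate 4 of 15B stood far above the other 3 and came close to the silenced parent, yet the call held without it. AT5G39730 had 129, 157, 146 and 169 in 15B, against 211, 221, 184 and 209 in the silenced parent (log2 difference -0.44, adjusted p = 0.0187). It lost its call with array 3 of 15B left out or with array 2 of the silenced parent left out (up to 0.0579). AT5G35170 had 242, 221, 223 and 196 in 15B, against 338, 301, 297 and 263 in the silenced parent (log2 difference -0.42, adjusted p = 0.0188), and lost its call with array 4 of 15B left out or with array 3 of the silenced parent left out (up to 0.0554). AT5G27400 and AT5G32450, named after their values were seen, were lower in 15B, with log2 differences of -0.40 and -0.39 (adjusted p = 0.0323 and 0.0104).

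On chromosome 5, 123 members held (76.4%) and 28 were undetermined. Its bright held members included AT5G27850 and AT5G35530, both on the list of ribosomal protein genes used here. AT5G27850 had 1607, 1760, 1750 and 1919 in 15B, against 1606, 1804, 1595 and 1654 in the silenced parent (log2 difference 0.08, 95% interval -0.09 to 0.24). AT5G35530 had 1600, 1781, 1676 and 1661 in 15B, against 1640, 1512, 1602 and 1609 in the silenced parent (log2 difference 0.08, -0.07 to 0.22). AT5G27700 averaged 1582 ± 55.1 in 15B and 1562 ± 101 in the silenced parent (SD, n = 4 each; log2 difference 0.02, -0.13 to 0.17). In all 3 the groups overlapped.

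**Figure D3:**
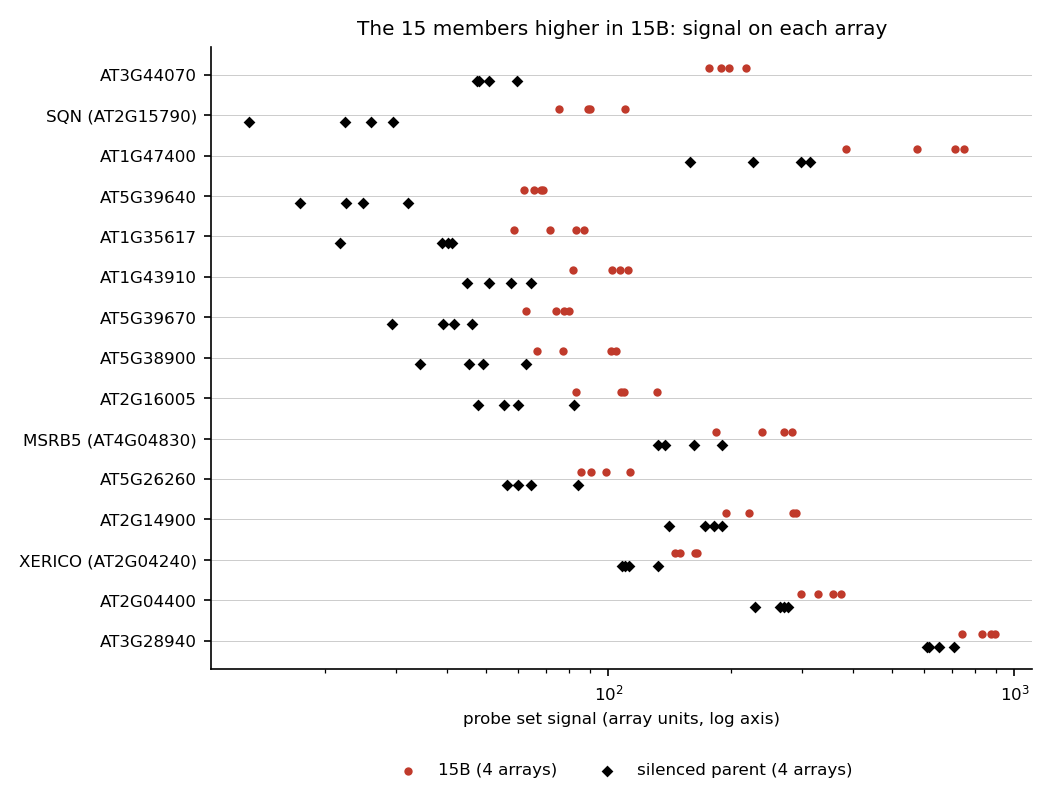
Probe set signal (array units, log axis) of the 15 members higher in 15B on each of the 4 arrays of 15B (red circles) and the 4 arrays of the silenced parent (black diamonds), ordered by log2 difference. AT3G44070 and SQN show the widest gaps between the groups, and MSRB5 is the only gene shown whose groups overlap.

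**Figure D4:**
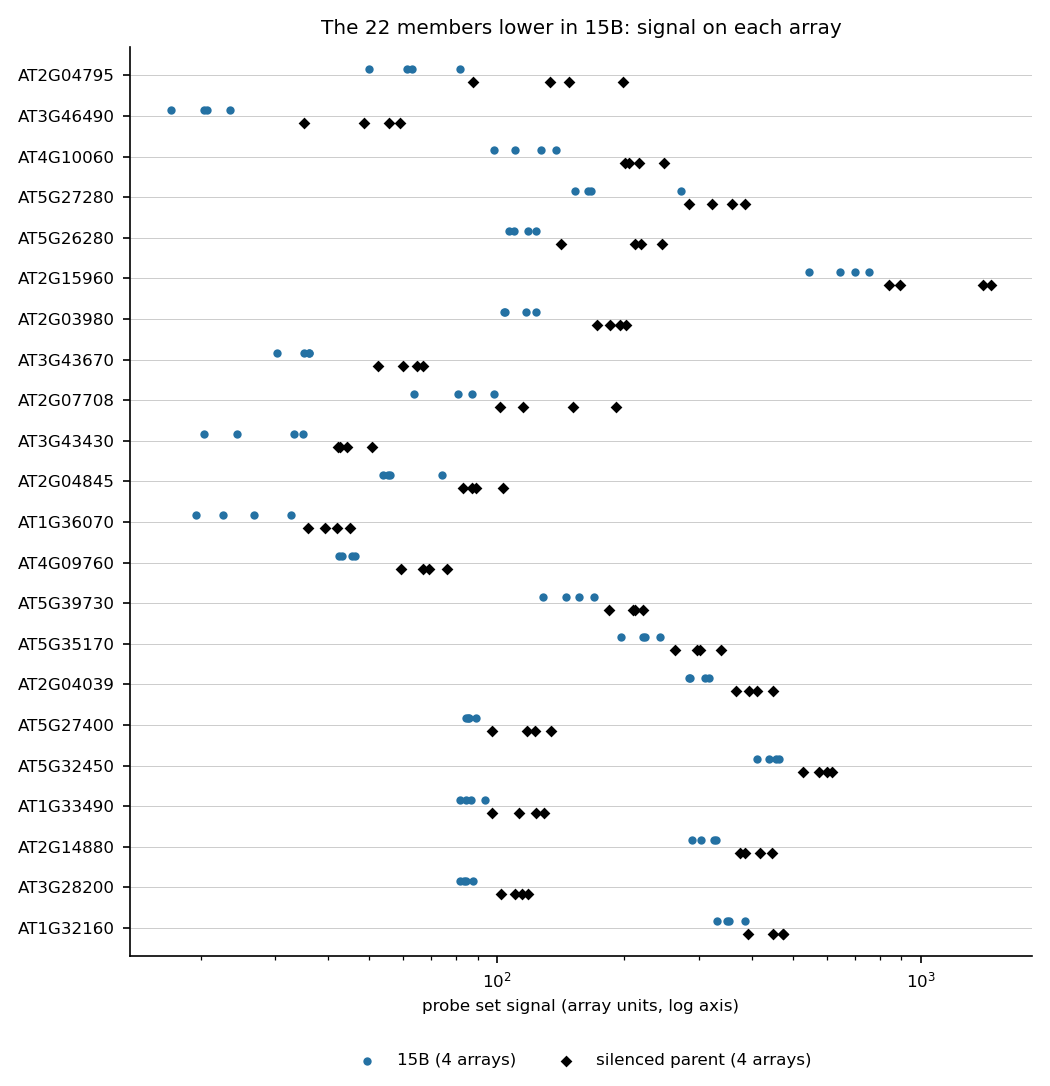
Probe set signal (array units, log axis) of the 22 members lower in 15B on each of the 4 arrays of 15B (blue circles) and the 4 arrays of the silenced parent (black diamonds), ordered by log2 difference. The groups do not overlap for any of the 22, and the gaps are narrower than those of the largest rises.

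Of the 37 changed members, 3 carry a gene symbol in RefSeq (SQN, XERICO and MSRB5). All 3 were higher in 15B, but they are too few to read a direction from. In all, 73 members have a symbol, of which 3 changed (4.11%, against 6.70% of all tested probe sets), 53 held and 17 were undetermined. Members whose role is well known (43) were placed in 6 role groups after their values had been seen, so the groups are a description only. All 6 members for autophagy, secretion and protein quality control held. Among them ATG8B and ATG8D, which build autophagosome membranes, had log2 differences of 0.07 and -0.05, and OS9 and DER2.2, of endoplasmic reticulum quality control, had -0.07 each. Of 9 chloroplast and carbon genes 8 held, and the thioredoxin y2 gene (ty2, -0.29, adjusted p = 0.175) was undetermined. This group spanned only -0.29 to 0.14.

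Of 12 chromatin and transcription genes, 11 held and 0 changed in the limma fit. An unadjusted p under 0.05 was seen for 2 of them, and for 21.5% of all tested probe sets. The 2 genes were HTB11, a histone H2B gene (log2 difference -0.26, adjusted p = 0.0683), and NRPB6B, an RNA polymerase subunit gene (0.27, adjusted p = 0.136). NERD, which takes part in small RNA directed silencing, had 69.3, 63.8, 56.7 and 64.0 in 15B, against 78.7, 64.8, 61.3 and 68.0 in the silenced parent. Its groups overlapped (log2 difference -0.09, 95% interval -0.32 to 0.14). DAYSLEEPER, a gene derived from a transposase that plants need for normal development, had a log2 difference of 0.01 (-0.19 to 0.22). ASF1B, a histone chaperone, was undetermined (-0.19, -0.57 to 0.19).

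Of the 6 cell wall and growth genes, 0 changed, 1 held and 5 were undetermined. An unadjusted p under 0.05 was seen for 5 of them, and for 21.5% of all tested probe sets. The group was made after its values were seen, so this count is no result about cell wall genes. EXLA1, an expansin-like gene, had the most negative estimate of any undetermined member, a log2 difference of -1.19 (95% interval -1.91 to -0.47) that just missed the threshold at an adjusted p of 0.0527. SBT3.5, a subtilisin-like protease, lay as far on the other side, with 1.17 (0.46 to 1.89, adjusted p = 0.0539). EXO, a growth gene that brassinosteroids induce, had -0.71 (adjusted p = 0.121), and CSLC04, which makes the xyloglucan backbone, had -0.31 (adjusted p = 0.153). Of 8 redox and detoxification genes, MSRB5 rose, 4 held (NQR, GSTU27, SAPX and NDB2) and 3 were undetermined (MSRB3, MSRB6 and Prx37).

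**Figure D5:**
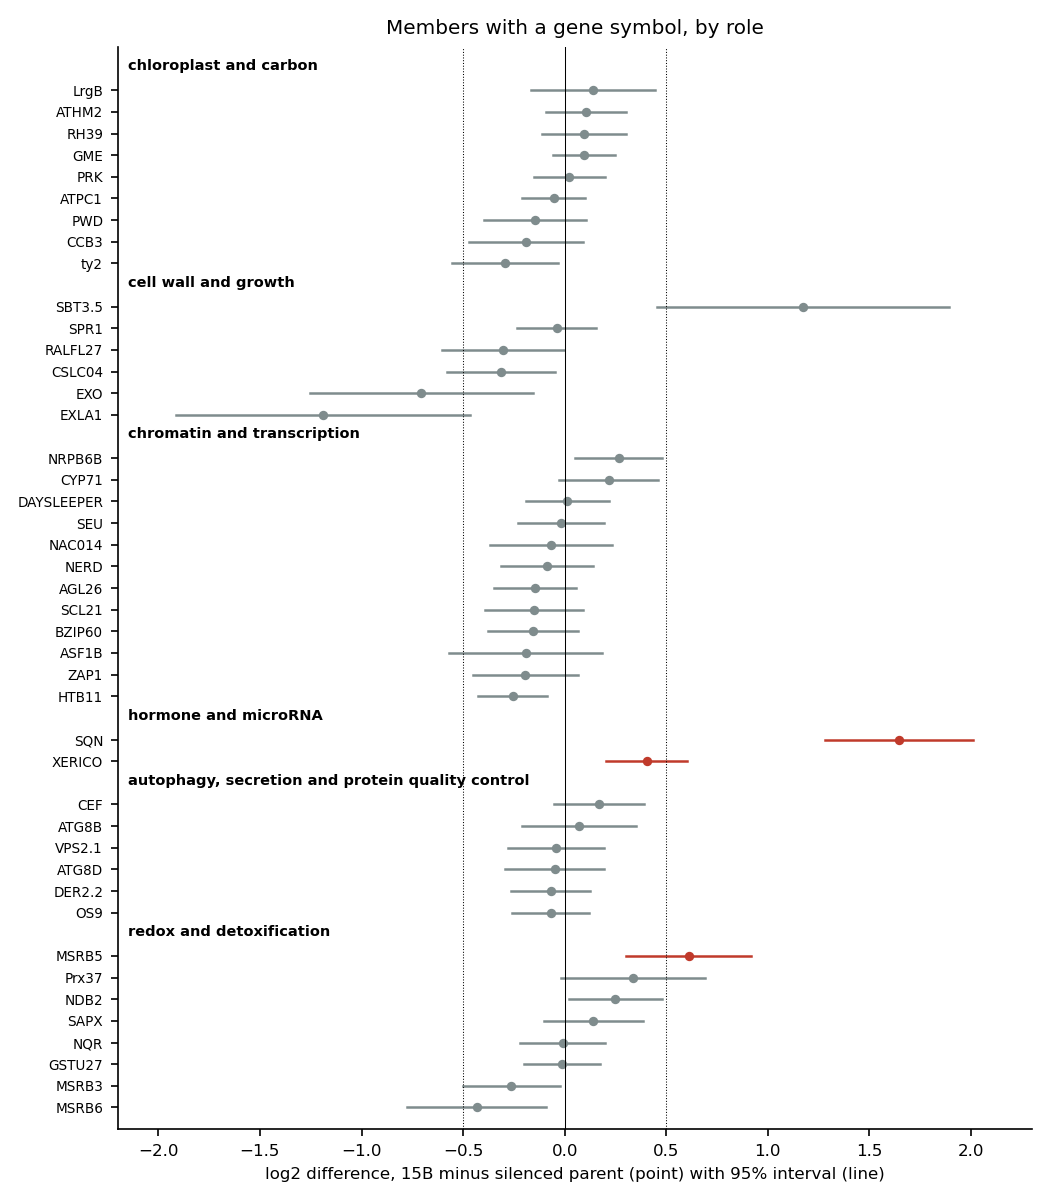
Log2 difference, 15B minus silenced parent (horizontal axis, point) with its 95% interval (line), for 43 members with a gene symbol, in 6 role groups, with red for genes higher in 15B, grey for genes that did not change and dotted lines at the limits of 0.5 for held members. SQN stands apart at 1.65, the autophagy and secretion genes lie close to 0, and the cell wall genes spread from -1.19 to 1.17 with long intervals.

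Few genes of the lists chosen for this comparison fell among the members. Of 19 ribosomal protein genes listed, 6 were tested, and all 6 held with a median log2 difference of 0.08, beside -0.03 over all tested probe sets. Of 20 chromatin and RNA genes listed, 4 were tested (NERD, SEU, AT5G35910 and AT5G26680), and all 4 held. The transcriptional corepressor SEU was at -0.02, AT5G35910 at 0.17 and AT5G26680 at 0.08. Of 24 photosynthesis and carbon genes listed, PRK and ATPC1 were tested and held. Of the lists for defence and jasmonate and for signalling and development, 0 genes were tested, so these data say nothing on them here.

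The members were also read against their neighbours. Around 32 changed members, 56 nearest tested protein-coding neighbours lay within 50 kb, at a median gap of 9.37 kb. The 56 count a gene once for each changed member beside it, so they are not all distinct genes. Of these entries 32 held, 2 changed in the same direction, 4 changed in the opposite direction and 18 were neither held nor changed. The changed entries are AT5G39640 with AT5G39670, AT2G14880 with AT2G14900 and AT5G39670 with AT5G39730, each counted from both sides. Over all tested probe sets 72.2% held and 6.70% changed. Changed members formed 6 pairs within 50 kb. AT2G04795 and AT2G04845 were both lower, and AT5G39640 and AT5G39670, 9.91 kb apart, were both higher. The other 4 pairs were opposed, and these were AT2G14880 with AT2G14900, AT2G15960 with AT2G16005, AT5G26260 with AT5G26280, and AT5G39670 with AT5G39730. SQN had AT2G15760 (log2 difference 0.25, adjusted p = 0.329) and AT2G15860 (0.15, adjusted p = 0.494) as nearest tested neighbours, and neither changed. AT1G43910 and AT1G43900 overlap in the annotation, and while the first rose, AT1G43900 had a log2 difference of -0.28 (adjusted p = 0.0859) and held.

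A pseudogene-annotated locus that was higher in 15B lay within 50 kb of 4 of the 15 members that rose (26.7%), of 6 of the 22 that fell (27.3%) and of 88 of the 556 that did not change (15.8%). These shares carry no test. AT2G16005 rose at 0.444 kb from the risen locus AT2G16000 (log2 difference 1.03), and on the other side of that locus AT2G15960 fell at 6.42 kb. AT1G35617 stood between AT1G35590 and AT1G35647, which were higher by 3.07 and 2.58 on the log2 scale. AT2G03980 lay 5.02 kb from AT2G04000, which was higher by 3.51, and was itself lower. AT3G43670 was lower at 18.7 kb from AT3G43640, which was higher by 3.05. AT3G44070, with the largest rise, had its nearest risen pseudogene-annotated locus at 272 kb, and AT5G39640 at 788 kb.

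The signal filter set which genes could be seen. Of 1384 probe sets in the windows that name a protein-coding gene, 593 passed and 791 did not. Those that passed were 135 of 292 on chromosome 1, 105 of 259 on chromosome 2, 122 of 323 on chromosome 3, 70 of 156 on chromosome 4 and 161 of 354 on chromosome 5. Just inside the filter lay AT1G44160 and the sugar transporter gene SWEET4, with mean signals of 30.1 and 30.2, and just outside AT5G38960 and AT2G07240, with 29.99 and 29.8. There were 12 members whose silenced parent mean was under the filter, of which 2 were higher in 15B, and 12 whose 15B mean was under it, of which 3 were lower. All these members had group means on either side of the filter level by construction, though most of them did not change. Those that changed were SQN, AT5G39640, AT3G46490, AT1G36070 and AT3G43430, and each was tested only because of its level in 1 group.

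The 4 loci left out by the rule all rose, each by more on the log2 scale than any member. AT1G36240 averaged 640 ± 121 in 15B and 46.5 ± 6.96 in the silenced parent (SD, n = 4 each), a log2 difference of 3.51. AT2G15560 averaged 675 ± 274 in 15B and 59.7 ± 29.6 in the silenced parent (3.31). QQS (AT3G30720), an orphan gene that affects starch content, averaged 914 ± 79.8 in 15B and 195 ± 46.5 in the silenced parent (2.2), and AT3G32030 averaged 55.5 ± 8.46 in 15B and 5.50 ± 3.03 in the silenced parent (2.09). The probe set of AT3G32030 is an _s_at design, whose probes several sequences share. Its mean in the silenced parent was under the signal filter, so it was tested only because of its level in 15B. With the 4 loci added back, 41 of 597 probe sets changed (6.87%).

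Across the members, arrays of the same group correlated at 0.964 to 0.979 (12 pairs) and arrays of different groups at 0.943 to 0.963 (16 pairs), across genes, which are not independent replicates. Scanner background was 77.6 to 101 on 7 arrays and 198 on replicate 4 of the silenced parent, without which 31 members changed, 29 of them among the 37. The leaf marker LHCB4.1 (log2 difference -0.06) and the root markers PYK10 (-0.00), EXPA7 (-0.09) and EXPA18 (0.08) all held. No probe set was named for the flower and seed markers. The p-values set each difference between the lines against the spread between pools of plants within a line. With 1 mutant line they say nothing on the spread between independent mutants.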

How the data were processed

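The deposited table holds linear intensity, with a value for each of 22810 probe sets on each array, and the authors had brought each array to a common scale, since the 2%-trimmed mean of every deposited column was 100.0. Differences in total signal between arrays are lost by this step. The software that summarised the probes is not given in the sources used here. Per the labels, biotin-labelled RNA made from total RNA was hybridised to 8 arrays.

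From these values, 64 control probe sets and those with a mean under 30 were left out, and log2(signal + 10) was compared between the groups (limma 3.58.1 in R 4.3.3, lmFit and eBayes with an intensity trend, two-sided, Benjamini-Hochberg over 13822 probe sets, threshold 0.05). A log2 difference on this scale understates the change of dim probe sets. The steps were tested on simulated data. Gene names came from GEO's 2016 annotation of the array (13513 name 1 gene, 503 several, 8730 none) and updated through Entrez numbers to RefSeq, TAIR10.1, where 13436 were found. Positions are those of that assembly and served to place genes and measure gaps, and Ler may differ from it. Probe sequence differences between lines were not used here.

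Named are, per chromosome, up to 4 changed members in each direction by size and the 3 brightest held members. The members, lists and rules were chosen with earlier results of these data known. No 2 arrays shared more than 0.969% of their values. Samples of the same replicate number had residual correlations of 0.25, -0.01, 0.05 and 0.05, so the numbers were not taken to pair them. The alternatives were other normalizations, pseudocounts of 1 and 30, no filter and a filter of 60, eBayes settings, array weights, a replicate block, _at probe sets only, stricter thresholds, narrower windows and leaving out each array. The number of arrays limits the precision.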

Additional observations from a re-analysis of the deposited data

Results flagged for a closer look

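In 9 of 122 sets of 4 values examined, 1 array stood far from the other 3. Chance alone gives this in about 1 set in 20. AT5G27280 had 273 on replicate 4 of 15B, where the other arrays of 15B had 153 to 167. AT2G04845 had 74.3 on replicate 3 of 15B, where the others had 53.7 to 55.9. In the silenced parent, AT1G35617 had 21.8 on replicate 3, where the others had 38.8 to 41.1. In each of these 3 genes the groups still did not overlap. Among held members, PRK (AT1G32060) had 2571 on replicate 4 of 15B, where the others had 2797 to 2835, and AT2G04700 had 978 on the same array, where the others had 1133 to 1152. AT2G05790 had 1007 on replicate 3 of the silenced parent, where the others had 866 to 877.

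The remaining 3 sets were measures of the arrays. Replicate 2 of 15B had 1353 outlier cells, where the other arrays of 15B had 403 to 505. The scanner background of replicate 4 in the silenced parent was 198, where the others had 77.6 to 94.3, and its scanner noise was 13.5, where the others had 3.91 to 5.15. Without replicate 2 of 15B 23 members changed, and without replicate 4 of the silenced parent 31 did.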

How the results depend on the processing

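None of the 31 named changed members reversed its direction in any alternative, while the near-zero log2 differences of 4 held members took either sign (PRK, -0.04 to 0.07, AT1G32470, -0.04 to 0.03, AT2G10940, -0.04 to 0.15, and AT5G27700, -0.03 to 0.05). Of the 31, 16 kept their call in all fits at the same threshold. The share of changed members moved with that of the whole array, for example to 3.88% of members and 3.71% of all tested probe sets without replicate 3 of the silenced parent. Leaving out 1 array at a time gave 9 to 14 members higher in 15B, 12 to 23 lower, 376 to 397 held and 513 to 977 changed over all tested probe sets. On chromosomes 1 to 5 the same fits gave 3 to 5, 6 to 11, 3 to 8, 2 to 4 and 6 to 10 changed members. With no filter, 24 probe sets were higher and 705 held of 1384 tested. With array weights chromosome 3 had 10 changed members, and with a filter of 60 it had 3. With an adjusted p under 0.01, 7 members were higher, 9 lower and 392 probe sets changed in all, with 3, 4, 3 and 4 changed members on chromosomes 1, 2, 3 and 5. With a change of at least 2-fold, 4 members were higher, 1 lower and 191 probe sets changed in all, with 1, 2, 1, 0 and 1 changed members on chromosomes 1 to 5. In windows narrowed by 1 Mb on each side, 3 members were higher, 6 lower and 158 held, with 3, 1, 3, 0 and 2 changed members on chromosomes 1 to 5, by construction from fewer members. Apart from narrower windows and stricter thresholds, the cause of these moves was not tested.

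With the replicate number as a block, 42 members changed, 35 of them among the 37, and chromosome 4 had 5. The numbers were not taken to pair the samples, though whether they do is not known, so this fit is given only for reference. Signal limits the reading of dim members, of which 39.0% were undetermined between 30 and 60, against 14.0% at 200 and over.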

Other observations

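Below the signal filter, 791 probe sets in the windows name a protein-coding gene. In a fit with no filter, 11 of them were higher and 9 lower in 15B, while 3.65% of all 22746 probe sets changed. The largest of these rises were AT1G32010, with 37.4, 50.4, 39.9 and 55.5 in 15B, against 1.5, 1.4, 1.5 and 2.90 in the silenced parent, and AT1G33710, with 44.4, 31.3, 41.3 and 53.7 in 15B, against 3.00, 2.80, 3.10 and 4.20 in the silenced parent. The probe set of AT1G32010 is an _s_at design, which several sequences share, and that of AT1G33710 is an _at design. Both genes lie on chromosome 1, and both had signals in the silenced parent among the lowest on the array, where the level is not well measured.

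AT3G28680 had 30.0, 46.2, 43.8 and 36.0 in 15B, against 13.2, 5.20, 7.40 and 15.7 in the silenced parent. Among the falls, CML30, a calmodulin-like gene, had 21.8, 19.8, 10.3 and 19.3 in 15B, against 41.0, 45.6, 37.8 and 37.9 in the silenced parent (adjusted p = 0.0141 in that fit). AT2G04800 had 6.60, 11.7, 11.1 and 14.6 in 15B, against 24.0, 40.1, 42.9 and 43.5 in the silenced parent. It is annotated beside AT2G04795, the largest fall of the tested members. These genes were chosen for display after their values were seen.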
